A study of Saccharomyces cerevisiae with 12 samples.

Results

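The genes described are the 81 budding yeast genes for proteins of the large ribosomal subunit, of 7127 genes in each count table. They were chosen by standard name, RPL with a number and an optional A or B, plus the 5 stalk genes RPP0, RPP1A, RPP1B, RPP2A and RPP2B. They encode 46 proteins, 35 of them from a pair of gene copies and 11 from a single gene. RNA was sequenced from cells of the BY4741 strain in mid-log growth in YPD, a rich glucose medium, with no treatment. The 12 libraries form 4 groups of 3. In H2AZ_4KR, going by its name, arginine replaces lysine at 4 places in H2A.Z, a histone variant found beside many promoters, and its control is WT_H2AZ. Ino80_K929R carries an arginine for a lysine in Ino80, the motor subunit of a chromatin remodeller, and its control is WT_Ino80. The labels give no plasmid, promoter or clone for any group, and do not say whether replicates were separate cultures, so p-values measure the spread between these libraries, which may be technical.

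The large subunit holds the peptidyl transferase centre, where amino acids are joined, and the exit tunnel of the new protein. In budding yeast most of its proteins are encoded by a pair of genes left from an old genome duplication. Transcription of these genes is tied to growth and nutrients through Rap1, which binds their promoters, and its partners Fhl1 and Ifh1. In bulk RNA, fewer transcripts in every cell and fewer cells with the transcript cannot be told apart.

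Copies of a pair can be nearly identical, which limits how far their RNA can be told apart. The coding sequences of RPL41A and RPL41B, for the smallest protein of the subunit, are shown because they differ at 1 base of 78, in capitals (C9T, from A to B, counted from the start codon). They are the sacCer3 coding sequences, 5′ to 3′, on the minus strand of chromosome IV, at 130407 to 130484 for RPL41A and at 221724 to 221801 for RPL41B.
RPL41A: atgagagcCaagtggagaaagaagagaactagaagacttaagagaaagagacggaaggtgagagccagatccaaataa
RPL41B: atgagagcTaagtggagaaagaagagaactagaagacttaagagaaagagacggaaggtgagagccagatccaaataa

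Over the 35 pairs, coding identity had a median of 93.2%, between 69.2% for RPP1 and 99.4% for RPL1. Of the 81 genes, 42 had over 5% of their 50-base windows repeated elsewhere in the genome, up to 81.4%, and 31 had none.

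The letters ACCCNNACA, a core of the Rap1 motif, were searched on both strands in the 500 bases before each start codon. They were found in 36 of 81 large subunit genes (44.4%) and in 328 of 6000 promoters of the annotation (5.47%). A motif of Abf1 (13 letters) was found in 8 of the 81 (9.88%, against 12.03% of all promoters), the Fhl1 letters GACGCA in 15 (18.5%, against 10.9%) and the Reb1 motif TTACCCG in 5 (6.17%, against 10.1%). No Rap1 match overlapped a match to another motif in these genes. The windows around the Rap1 letters of the 4 genes with the highest fold changes in H2AZ_4KR are shown because the results below start from those genes. They are sacCer3 sequences, 5′ to 3′ on the strand of the gene, with the match in capitals: RPL9A at chrVII:228590-228679 (minus strand, where the match is the reverse complement of the motif), RPL38 at chrXII:781599-781688 (minus strand), RPL14A at chrXI:431456-431545 (plus strand) and RPL36B at chrXVI:76504-76593 (minus strand).
RPL9A: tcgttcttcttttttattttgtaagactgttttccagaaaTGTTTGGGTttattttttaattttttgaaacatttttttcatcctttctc
RPL38: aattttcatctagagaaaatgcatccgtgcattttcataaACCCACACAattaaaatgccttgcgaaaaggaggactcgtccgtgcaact
RPL14A: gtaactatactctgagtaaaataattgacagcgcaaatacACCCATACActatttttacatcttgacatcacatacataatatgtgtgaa
RPL36B: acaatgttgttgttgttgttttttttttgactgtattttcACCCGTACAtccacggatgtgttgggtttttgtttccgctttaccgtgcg

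RPL9B, the other copy of the RPL9 pair, had no match to these Rap1 letters in its window. RPL28 and RPL33A, with the lowest fold changes in H2AZ_4KR, did have a match, and RPL15A, which rose by 0.86 on the log2 scale, had none. The median log2 fold change in H2AZ_4KR was 0.64 for tested genes with the letters and 0.61 for those without. A match describes the letters only.

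Counting limited 12 of the 81 genes before any comparison. In them, 40% or more of the exon bases are covered by another gene of the table, and fragments over more than 1 gene were not counted, per the file headers. RPL43A (99.3% covered) had at most 8 fragments in a library and RPL39 (96.2%) at most 9, so neither passed the filter on low counts. RPL22A (96.7%), RPL36B (93.7%), RPL28 (89.1%) and RPL33A (88.0%) passed it with few fragments, and their levels are those of the uncovered bases. RPL12A, RPL12B, RPL10, RPL8B, RPL7B and RPP0 were covered by 47.8% to 62.4%. The remaining 79 genes were tested.

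Libraries held 17253140 to 20164258 counted fragments. HTZ1, the H2A.Z gene, stood at 387 ± 62.3 CPM (fragments relative to all counted fragments of the library) in H2AZ_4KR and at 95.9 ± 2.88 CPM in WT_H2AZ (SD, n = 3 each), and INO80 at 1200 ± 150 CPM in Ino80_K929R and 150 ± 24.4 CPM in WT_Ino80 (SD, n = 3 each). The level of the targeted gene and its substitution therefore cannot be told apart. LEU2, which BY4741 lacks, was at 117 to 150.02 CPM in H2AZ_4KR, 0 in each WT_H2AZ library, 121 to 159 CPM in Ino80_K929R and 156 to 183 CPM in WT_Ino80, and its part in the results was not tested. The 5 a-cell genes summed to 640.4 to 2052 CPM and the 3 alpha-cell genes to 7.59 to 38.6 CPM over the 12 libraries. BY4741 is of mating type a.

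The large subunit genes took 7.87%, 7.57% and 7.54% of all counted fragments in H2AZ_4KR replicates 1 to 3, against 5.18%, 5.26% and 5.86% in WT_H2AZ. They took 6.86%, 7.25% and 7.70% in Ino80_K929R, against 11.4%, 7.98% and 8.01% in WT_Ino80. Each H2AZ_4KR library lay above each WT_H2AZ library, and each Ino80_K929R library below each WT_Ino80 library. WT_Ino80 replicate 1 stood apart from every other library. In that library, the 2181 other genes with exons under 600 bases also took more, 11.4% against 7.69% to 9.73% elsewhere. An offset for gene length was fitted as an alternative, and its outcome is given below. Whether a preference for short transcripts was a cause of the result was not tested.

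**Figure D1:**
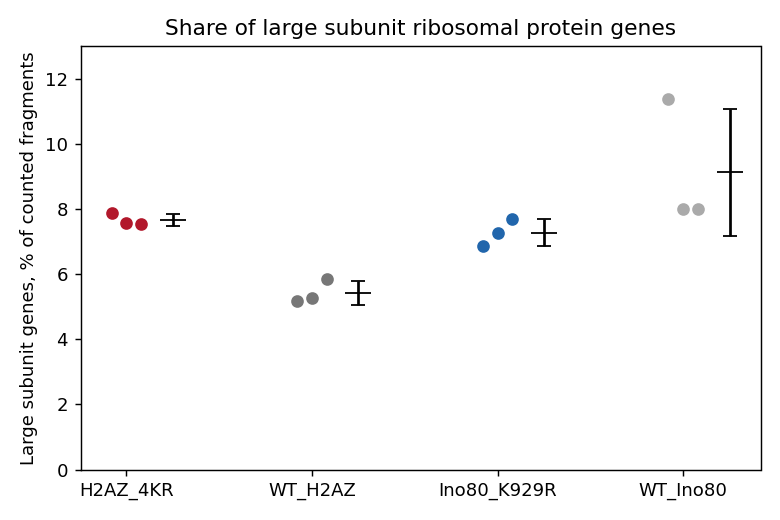
Share of all counted fragments (%, y axis) taken by the large subunit genes in each library (points) of the 4 groups (x axis), with the mean and SD of 3 libraries beside them. H2AZ_4KR averaged 7.66% and WT_H2AZ 5.43%, Ino80_K929R averaged 7.27% and WT_Ino80 9.12%, and WT_Ino80 replicate 1 is the single point at 11.4%.

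Levels differed widely among the genes. Per exon length, as RPKM averaged over the 12 libraries, the 69 genes under 40% covered had a median of 1909 RPKM. RPL41A had the highest level, at 6147 RPKM, followed by the stalk genes RPP1A (5342 RPKM) and RPP2A (4703 RPKM) and by RPL41B (4163 RPKM). RPL3, whose protein lies near the peptidyl transferase centre, stood at 4047 RPKM. RPL15B had the lowest level of the 69, at 64.03 RPKM, against 2359 RPKM for its copy RPL15A. RPL41A and RPL41B have only 78 exon bases, so their levels per length are uncertain.

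In H2AZ_4KR, 55 of 79 large subunit genes rose against WT_H2AZ and 0 fell by edgeR's quasi-likelihood test (Benjamini-Hochberg adjusted p below 0.05 and over 1.5-fold). Over all 6106 genes tested, 4.78% rose and 7.32% fell. The median log2 fold change of the 79 genes was 0.64, against -0.007 for all genes tested, and 78 of them were above 0. At an unadjusted p below 0.05 there were 71 of 79, none of them lower, against 36.5% of all genes in either direction and 19% lower. The groups did not overlap in 67 of 79, all higher in H2AZ_4KR, against 10.4% of all genes with no overlap and higher, and 34% with no overlap and lower. Most changes lay close to the fold limit: 13 further genes passed the adjusted p but not the fold, and 0 passed a test against a change of 1.5-fold (glmTreat). With library totals as the only scaling, the median of all genes was -0.15, 2.26% of all genes were higher and 11% lower, and 27 large subunit genes were called higher. With an offset for gene length, 40 of the 79 were called higher, against 4.95% of all genes, and the median of the 79 was 0.61. A fit of all 12 libraries called 24, and the share over all genes was not computed for it.

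RPL38, a single gene for a small protein of the subunit, stood at 809, 1058 and 966 CPM in H2AZ_4KR, against 411, 625 and 518 CPM in WT_H2AZ. The groups did not overlap, and on the log2 scale RPL38 rose by 1.01 (SE 0.16, edgeR adjusted p = 0.00201). RPL9A, 1 copy for a protein near the stalk base, stood at 1141, 1094 and 1031 CPM in H2AZ_4KR, against 594, 656 and 655 CPM in WT_H2AZ. It rose by 0.92 (SE 0.12, edgeR adjusted p = 0.000781). RPL14A stood at 923, 1201 and 1179 CPM in H2AZ_4KR, against 572, 658 and 701 CPM in WT_H2AZ, and rose by 0.91 (SE 0.14). RPL36B, mostly covered by another gene, had 8.37, 14.03 and 13.4 CPM in H2AZ_4KR, against 6.30, 5.22 and 4.93 CPM in WT_H2AZ, and had the highest fold change, 1.26 (SE 0.23, edgeR adjusted p = 0.00472).

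At the low end, RPL28, RPL33A and RPL22A had log2 fold changes of -0.02, 0.14 and 0.21 that did not pass. RPL28 had 6.91, 8.23 and 8.61 CPM in H2AZ_4KR, against 4.35, 14.6 and 7.87 CPM in WT_H2AZ. RPL33A had 2.65, 1.10 and 1.55 CPM in H2AZ_4KR, against 1.60, 1.53 and 2.21 CPM in WT_H2AZ. RPL22A had 1.87, 0 and 0.287 CPM in H2AZ_4KR, against 0.286, 0.633 and 1.19 CPM in WT_H2AZ. The groups overlapped in all 3, which are covered genes with few fragments, and their sign changes with the processing. Of the well counted genes RPL9B had the lowest change. It stood at 340.3, 332 and 351 CPM in H2AZ_4KR, against 293, 337 and 299.8 CPM in WT_H2AZ, a log2 fold change of 0.28 (SE 0.10, edgeR adjusted p = 0.0574), and the groups overlapped. The RPL9 copies thus held both the third highest and the fourth lowest change of the 79.

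The stalk is a flexible arm that recruits elongation factors to the ribosome, with RPP0 as its base and the other stalk proteins as dimers on it. In H2AZ_4KR, 4 of 5 stalk genes rose. RPP1A stood at 1606, 1834 and 1940.1 CPM in H2AZ_4KR, against 997, 1218 and 1312 CPM in WT_H2AZ, a log2 fold change of 0.75. RPP1B stood at 754, 1186 and 1266 CPM in H2AZ_4KR, against 636, 719 and 692 CPM in WT_H2AZ, a change of 0.79. RPP2A stood at 1333, 1511 and 1545 CPM in H2AZ_4KR, against 942, 1110.2 and 1109 CPM in WT_H2AZ, a change of 0.61. The groups did not overlap in these 3 genes, nor in RPP2B and RPP0 below, against 10.4% of all genes with no overlap and higher. RPP2B had 1038, 1336 and 1320.3 CPM in H2AZ_4KR, against 432, 908 and 902 CPM in WT_H2AZ, where replicate 1 was lower than the others, and rose by 0.86. RPP0 had 2542, 2268 and 2419.7 CPM in H2AZ_4KR, against 2218, 1485 and 2076 CPM in WT_H2AZ, a change of 0.46 that did not pass (edgeR adjusted p = 0.1). RPP2A lost its call with library totals as the only scaling (0.47), with an offset for gene length (0.52), without H2AZ_4KR replicate 3 (0.57) and without WT_H2AZ replicate 1 (0.54), and RPP2B without H2AZ_4KR replicate 2 (edgeR adjusted p = 0.0758) or 3 (0.096). In 1 fit of 12 libraries the log2 fold changes moved by less than 0.01, but none of the 4 calls held (edgeR adjusted p = 0.135 for RPP1A, 0.102 for RPP1B, 0.231 for RPP2A and 0.157 for RPP2B).

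Of the 11 proteins with a single gene, 10 genes were tested and 6 rose in H2AZ_4KR: RPL3, RPL5, RPL29, RPL30, RPL32 and RPL38. RPL3 stood at 4951 ± 49.6 CPM in H2AZ_4KR and 3460 ± 349 CPM in WT_H2AZ (SD, n = 3 each). RPL30, whose protein can repress splicing of its own transcript, stood at 1409 ± 132 CPM in H2AZ_4KR and 877 ± 141 CPM in WT_H2AZ (SD, n = 3 each), a log2 fold change of 0.83. RPL25 passed the adjusted p at 0.57, just under the fold limit of 0.58. RPL10, RPL28 and RPP0 did not pass. Among the genes of pairs, 49 of 69 rose. Of genes with 1 exon 23 of 30 rose (median 0.66), and of those with more 32 of 49 (median 0.61). Of genes with the Rap1 letters 26 of 36 rose (median 0.64), and of those without 29 of 43 (median 0.61). Whether these shares differ was not tested. Summed over both copies, 45 proteins with a value had a median log2 ratio of mean CPM of 0.52. CPM are scaled by library totals only, and with that scaling the median of all genes was -0.15. In 40 of the 45 the groups did not overlap, all higher in H2AZ_4KR, against 10.4% of all single genes with no overlap and higher.

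**Figure D2:**
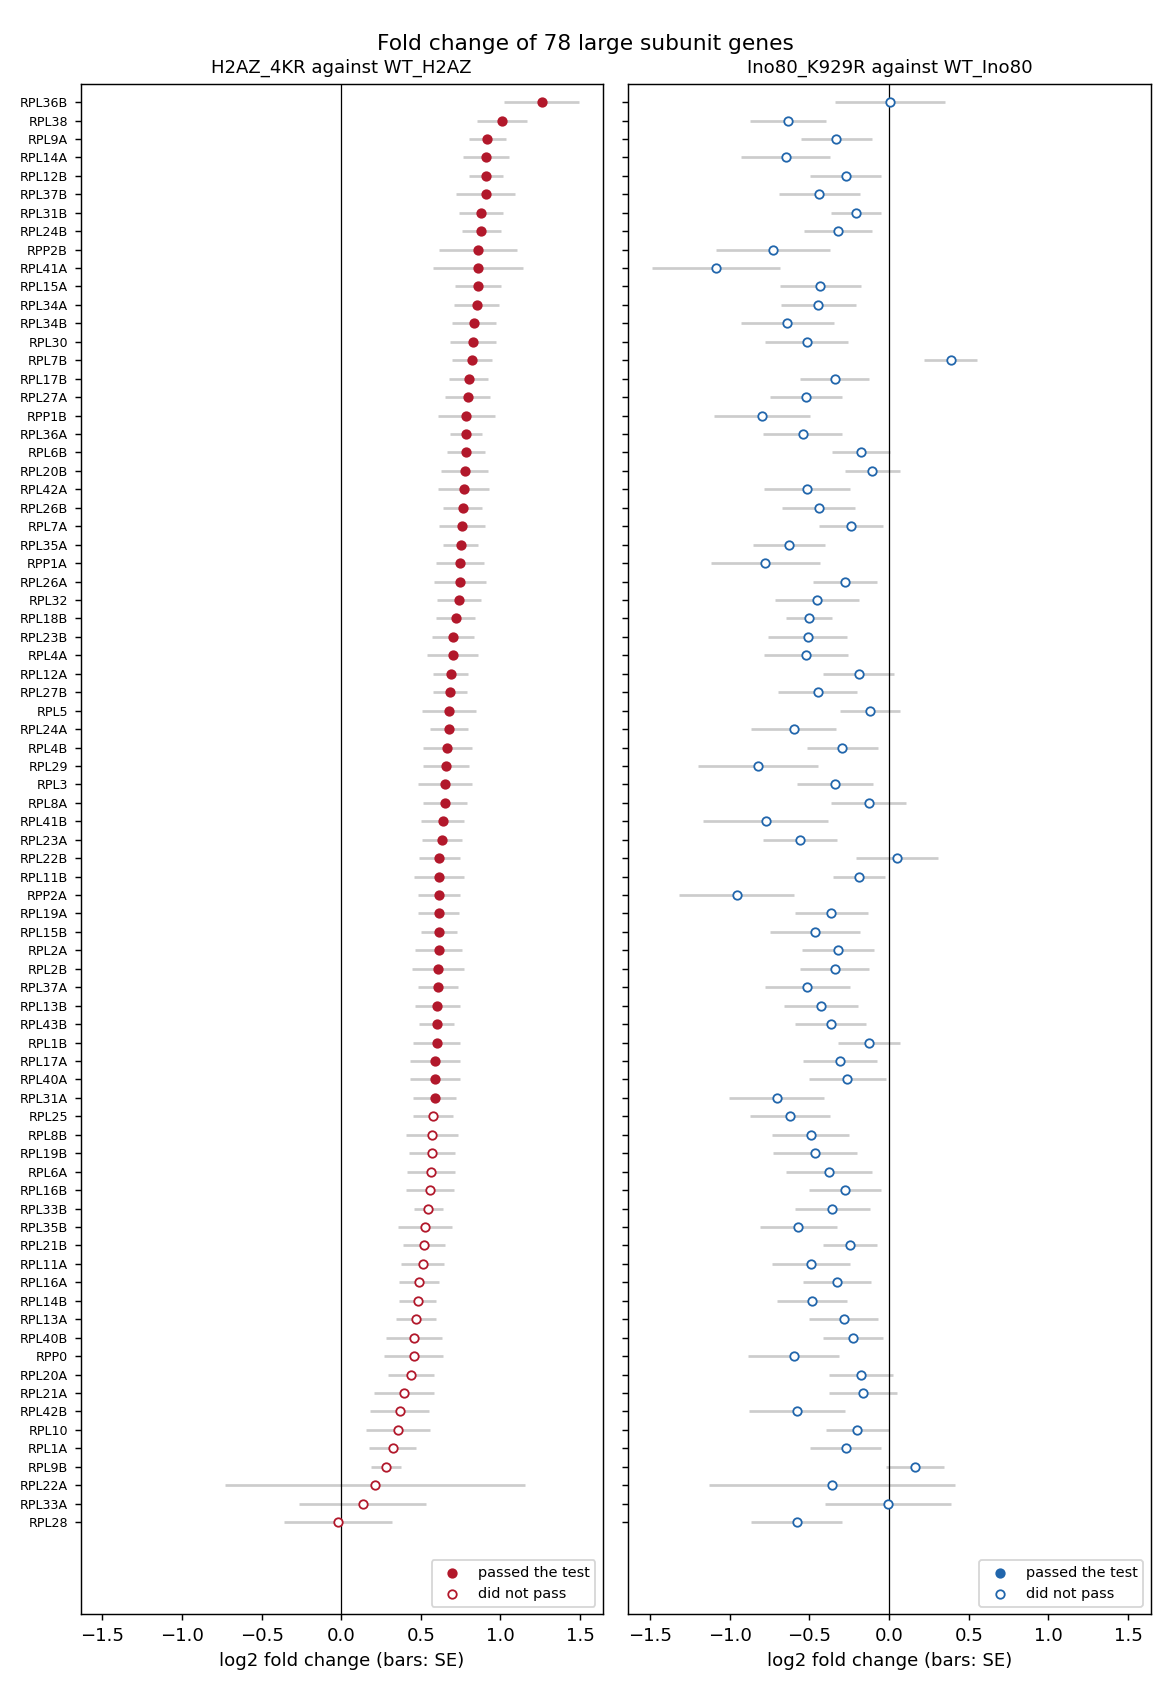
Log2 fold changes (x axis, bars are SE) of 78 tested genes (rows, ordered by the left panel) in H2AZ_4KR against WT_H2AZ (left) and Ino80_K929R against WT_Ino80 (right). Filled points passed the test: 55 in the left panel, all above 0, and 0 in the right, where 74 of 78 lie below 0.

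In Ino80_K929R, 0 of 79 large subunit genes were called against WT_Ino80, by edgeR and also by DESeq2. The background was small too, with 0.0162% of 6161 genes called by edgeR, 1 gene. At an unadjusted p below 0.05 there were 12 of 79, 11 of them lower, against 6.17% and 3.86% of all genes. The median log2 fold change was -0.38, against -0.005 for all genes, and 75 of 79 were below 0. The groups did not overlap in 32 of 79, all lower in Ino80_K929R, against 8.47% of all genes (6.36% had no overlap and were higher). Much of this turned on 1 library: without WT_Ino80 replicate 1 the median was -0.09 and 14 genes were above 0. With an offset for gene length it was -0.20. Simulated counts with the spread of these libraries gave calls for 16 of 50 genes lowered to 0.5 of their level, 21 of 50 raised 2-fold and 3 of 50 raised 1.5-fold (adjusted p below 0.05, no fold limit).

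RPL41A stood at 339, 298 and 249 CPM in Ino80_K929R, against 933, 426 and 398 CPM in WT_Ino80, a log2 fold change of -1.09 (SE 0.40, edgeR adjusted p = 0.722). RPP2A had 1396, 1216 and 1143 CPM in Ino80_K929R, against 3411, 1664 and 1739 CPM in WT_Ino80, a change of -0.96. RPL29 had 224, 266 and 258 CPM in Ino80_K929R, against 646, 319 and 264 CPM in WT_Ino80, a change of -0.82, with overlapping groups. RPP1B had 996, 935 and 918 CPM in Ino80_K929R, against 2157, 1238 and 1260.3 CPM in WT_Ino80, a change of -0.80. In all 4 genes WT_Ino80 replicate 1 was the highest library. The other stalk genes stood at -0.78 for RPP1A, -0.73 for RPP2B and -0.60 for RPP0, and none passed. RPP1A had 1589, 1500.0 and 1389.9 CPM in Ino80_K929R, against 3512, 1738 and 1942 CPM in WT_Ino80. RPP2B had 1079, 978 and 1027 CPM in Ino80_K929R, against 2415, 1105 and 1241 CPM in WT_Ino80. RPP0 had 2716, 2763 and 2709 CPM in Ino80_K929R, against 5183, 3183 and 3321 CPM in WT_Ino80.

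At the high end, RPL7B had 109, 108 and 143 CPM in Ino80_K929R, against 70.2, 112 and 86.0 CPM in WT_Ino80, a log2 fold change of 0.39 that did not pass. RPL9B had 415, 441 and 505 CPM in Ino80_K929R, against 434, 385 and 341 CPM in WT_Ino80, a change of 0.16, with overlapping groups. RPL22B and RPL36B had 0.05 and 0.004. RPL22B had 57.6, 76.8 and 125 CPM in Ino80_K929R, against 64.03, 101 and 75.5 CPM in WT_Ino80. RPL36B had 14.6, 13.2 and 15.6 CPM in Ino80_K929R, against 19.7, 10.4 and 10.4 CPM in WT_Ino80. RPL9B was thus among the lowest changes in H2AZ_4KR and among the highest in Ino80_K929R.

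The difference between the mutant effects was tested as a contrast in 1 fit of 12 libraries, with H2AZ_4KR on top. There, 24 of 79 large subunit genes were called higher and 0 lower, against 1.99% higher and 4.25% either way over 6235 genes. The count depended on single libraries. It was 7, 1 and 1 without H2AZ_4KR replicate 1, 2 or 3, and 1, 2 and 2 without WT_H2AZ replicate 1, 2 or 3. It was 1, 1 and 29 without Ino80_K929R replicate 1, 2 or 3, and 37, 55 and 43 without WT_Ino80 replicate 1, 2 or 3. The calls over all genes moved too, with 0.111% to 3.84% of them higher in these fits. DESeq2 called 62 large subunit genes, beside 6.03% of all genes higher. With the replicate number as a block edgeR called 2, RPL18B and RPL38, beside 0.209% of all genes higher. The median difference moved less, between 0.74 and 1.18 over these leave-one-out fits and 1.03 with all libraries. The members with the smallest adjusted p were RPL18B (1.22, SE 0.19, edgeR adjusted p = 0.0121), RPL38 (1.64), RPL35A (1.38) and RPL31B (1.08). RPL31B had 414, 357 and 335 CPM in H2AZ_4KR and 181, 237 and 244 CPM in WT_H2AZ, beside 316, 345 and 396 CPM in Ino80_K929R and 406, 378 and 382 CPM in WT_Ino80. RPL35A had 259, 315 and 305 CPM in H2AZ_4KR and 179, 197 and 200.3 CPM in WT_H2AZ, beside 252, 251 and 295 CPM in Ino80_K929R and 481, 327 and 358 CPM in WT_Ino80.

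The wild types themselves were far apart. In WT_Ino80, 62 of 79 large subunit genes were higher than in WT_H2AZ and 0 lower, against 17.7% higher over all genes, with a median log2 difference of 0.88. At an unadjusted p below 0.05 there were 70 of 79, against 51.5%. These libraries are also the wild types of the mutant comparisons, so the comparisons are not independent. The tables and the strains cannot be told apart here. Without WT_Ino80 replicate 1 the count was 38, against 15.5% of all genes higher. With an offset for gene length it was 39, against 16.1% of all genes. RPL18B had 519, 611 and 558 CPM in WT_Ino80, against 223, 204 and 219 CPM in WT_H2AZ, a difference of 1.45 (SE 0.14, edgeR adjusted p = 3.24e-05). RPL6B had 760.4, 668 and 633 CPM in WT_Ino80, against 306, 274 and 287 CPM in WT_H2AZ, a difference of 1.33. RPL12A, 62.4% covered by another gene, had 822, 560.1 and 639.9 CPM in WT_Ino80, against 298, 301 and 319.8 CPM in WT_H2AZ, a difference of 1.23. RPL38 had 1562, 1104 and 1069 CPM in WT_Ino80, against 411, 625 and 518 CPM in WT_H2AZ. Mating type genes differed too. The 3 alpha-cell genes summed to 31.02 to 38.6 CPM in WT_Ino80, against 8.49 to 8.94 CPM in WT_H2AZ, and 3 of 3 were called higher (median 2.57). The 5 a-cell genes summed to 640.4 to 1399 CPM in WT_Ino80, against 1462 to 2052 CPM in WT_H2AZ, and 3 of 5 were called lower, MFA2, BAR1 and STE2, at -2.12, -0.995 and -0.72. Their part in the result was not tested.

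Over the 4 groups, WT_H2AZ had the lowest mean CPM in 68 of 78 large subunit genes with at least 10 fragments in every library (87.2%), against 21.0% of 5847 genes of all kinds. WT_Ino80 had the highest mean in 59 of them (75.6%, against 29.3%).

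Copies of a pair differed in level. Of the 28 pairs in which neither copy was covered by 40% or more, 2 had a copy with over 75% of the fragments per exon length, 9 had both copies between 40% and 60%, and A was the higher copy in 19. RPL15 was the most uneven, with RPL15A at 97.3% of the pair, while RPL14A made up 72.9% of its pair. RPL37, RPL20 and RPL21 were the most even, at 53.6%, 53.6% and 55.7% for copy A. Over all 35 pairs RPL43, RPL33 and RPL22 had copy A at 0.029%, 1.86% and 1.97%, and in each of them that copy is covered by another gene. RPL37A made up 66.6%, 48.7% and 47.0% of its pair in H2AZ_4KR, against 62.5%, 57.7% and 56.9% in WT_H2AZ, so H2AZ_4KR replicate 1 differed from the other libraries of its group.

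**Figure D3:**
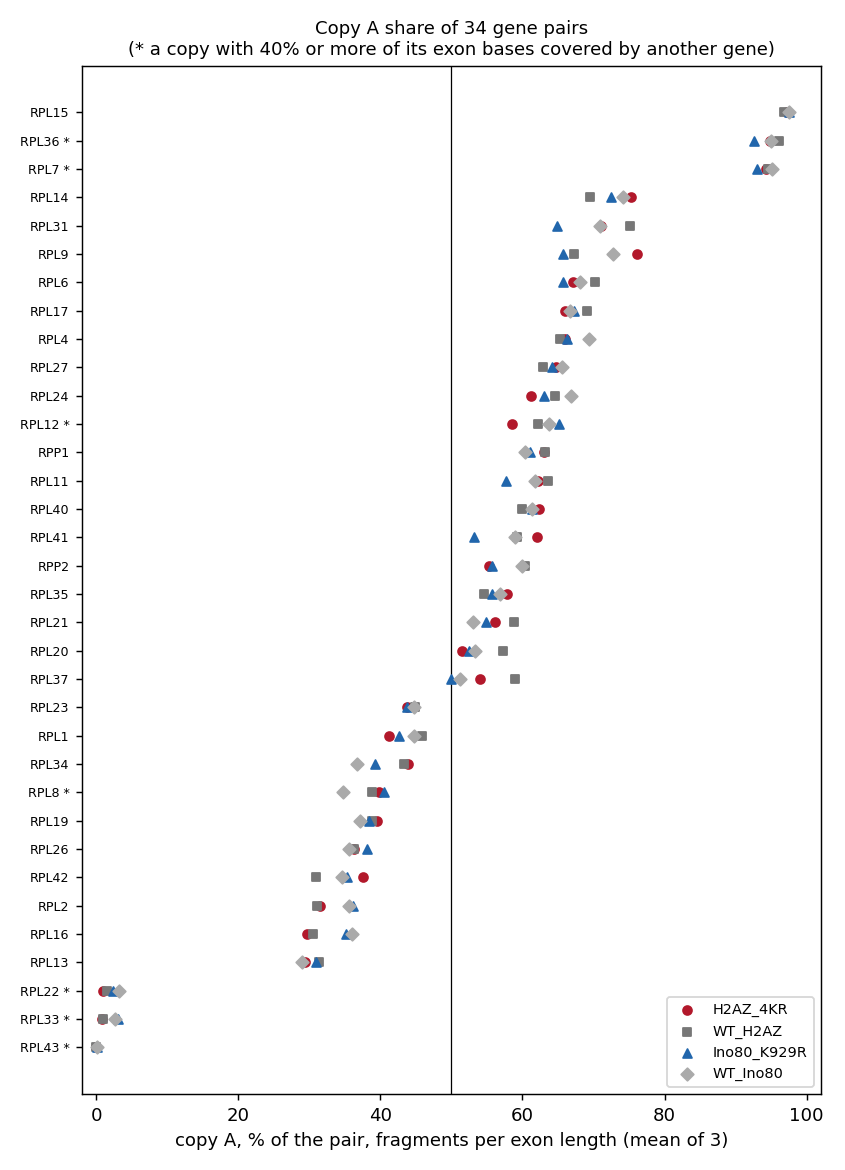
Copy A as a percentage of its pair, in fragments per exon length (x axis, mean of 3 libraries), for 34 pairs (rows) in the 4 groups (symbols), with a line at 50%. RPL15 sits at 97.3% over all libraries, RPL37 near the line at 53.6%, and pairs marked with an asterisk have a copy whose exon bases are 40% or more covered by another gene.

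The ratio of the copies was tested within libraries, over 59 gene pairs of the table, 33 of them large subunit pairs. In H2AZ_4KR, 5 of 33 pairs passed (edgeR, adjusted p below 0.05), against 15.3% of the 59, so the share is near the background. In Ino80_K929R, 2 of 33 passed, against 6.78%.

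RPL9 had the largest change. RPL9A made up 77.0%, 76.7% and 74.6% of the pair's fragments in H2AZ_4KR, against 66.9%, 66.1% and 68.6% in WT_H2AZ. The groups did not overlap, and the ratio of A to B rose by 0.64 on the log2 scale (SE 0.11, edgeR adjusted p = 0.00751). In Ino80_K929R the share of RPL9A was 65.7%, 65.5% and 66.0%, against 74.3%, 70.8% and 73.0% in WT_Ino80. There the ratio fell by 0.47 (SE 0.08, edgeR adjusted p = 0.0167). The difference between these effects was 1.11 (SE 0.14, edgeR adjusted p = 9.54e-05), a test added after the values were seen, in which 3 of 33 pairs passed, RPL9 and RPL14 among them, against 10.2% of the 59. Only the call in H2AZ_4KR without H2AZ_4KR replicate 2 was lost among the fits that left out a library of that table (0.61, edgeR adjusted p = 0.0643), while in Ino80_K929R the call was lost in 4 of 6 such fits with the ratio between -0.46 and -0.48.

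RPL14A made up 73.6%, 75.9% and 76.4% of its pair in H2AZ_4KR, against 69.7%, 69.0% and 69.6% in WT_H2AZ, a rise of the ratio by 0.42. RPL42A made up 34.9%, 39.4% and 38.3% of its pair in H2AZ_4KR, against 30.3%, 31.8% and 30.7% in WT_H2AZ, also a rise by 0.42. RPL20A made up 50.9%, 51.4% and 52.1% in H2AZ_4KR, against 59.9%, 55.9% and 55.8% in WT_H2AZ, and the ratio fell by 0.33. The groups did not overlap in any of these 3 pairs. That also held for pairs that did not pass, among them RPL1, RPL12, RPL17 and RPL31. Each of the 3 calls was lost in 5 or more of the 6 fits that left out a library. RPL36 and RPL33, with a covered copy, had changes of -0.45 and -0.42 that did not pass. RPL36A made up 96.1%, 94.1% and 94.2% in H2AZ_4KR, against 95.2%, 96.5% and 96.7% in WT_H2AZ. RPL33A made up 1.13%, 0.437% and 0.675% in H2AZ_4KR, against 0.906%, 0.806% and 1.26% in WT_H2AZ. The groups overlapped in both.

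In Ino80_K929R, RPL8A made up 39.7%, 40.5% and 41.4% of its pair, against 34.6%, 35.9% and 33.5% in WT_Ino80, and the ratio rose by 0.36 (SE 0.07, edgeR adjusted p = 0.0242). RPL8B is 53.7% covered by another gene. RPL7, RPL36 and RPL31 had changes of -0.61, -0.59 and -0.41 that did not pass. RPL7A made up 92.6%, 93.6% and 92.7% in Ino80_K929R, against 96.6%, 93.9% and 95.04% in WT_Ino80. RPL36A made up 92.004%, 93.03% and 92.8% in Ino80_K929R, against 94.3%, 95.5% and 95.1% in WT_Ino80. RPL7B is 49.0% and RPL36B 93.7% covered by another gene. RPL31A made up 66.8%, 64.5% and 63.5% in Ino80_K929R, against 77.4%, 68.0% and 67.2% in WT_Ino80, with replicate 1 of WT_Ino80 apart from the others. In RPL7, RPL36 and RPL31 the groups did not overlap, though none of them passed. The share of all pairs without overlap was not computed.

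Between the wild types, WT_Ino80 against WT_H2AZ, the copy ratio passed the same test in 1 of 33 large subunit pairs, against 11.9% of the 59 pairs. RPL9 did not pass there, with a log2 ratio higher by 0.38 in WT_Ino80 (edgeR adjusted p = 0.0503). RPL9A made up 70.8% to 74.3% of its pair in WT_Ino80 and 66.1% to 68.6% in WT_H2AZ, beside 65.5% to 66.0% in Ino80_K929R.

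**Figure D4:**
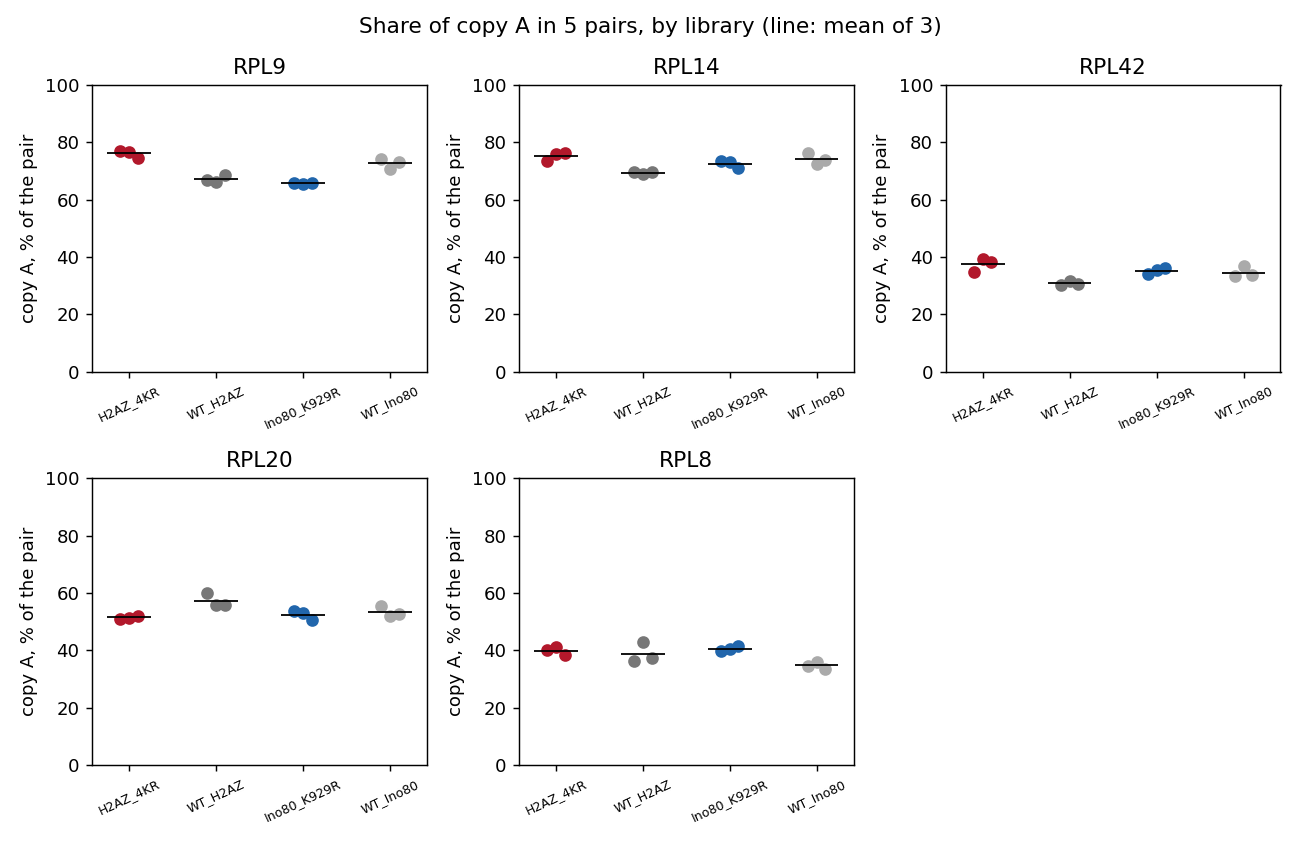
Copy A as a percentage of the fragments of its pair (y axis) in each library (points) of the 4 groups (x axis) for 5 pairs called in a mutant comparison, with the mean of 3 as a line. RPL9A is at 74.6% to 77.0% in H2AZ_4KR and 66.1% to 68.6% in WT_H2AZ, and at 65.5% to 66.0% in Ino80_K929R and 70.8% to 74.3% in WT_Ino80.

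The other genes of the pathway are given beside the 4.78% of all genes that rose and the 7.32% that fell in H2AZ_4KR. Of 57 small subunit genes, 39 rose and 0 fell, with a median log2 fold change of 0.66, led by RPS9A at 1.18 and RPS22A at 0.93. In Ino80_K929R 0 of 57 were called, with a median of -0.35. Of 9 tested elongation factor genes, 3 rose in H2AZ_4KR: CAM1, EFB1 and TEF2, at 0.63, 0.74 and 0.67. Of 69 assembly factor genes 6 rose and 0 fell, with a median of 0.20. Of 24 regulators of ribosomal protein genes 1 rose and 2 fell, a share near the 12.1% of all genes called either way. They were TPK3, which rose by 0.62, and YAK1 and CRF1, at -0.65 and -0.83. Of the other regulators, 6 passed the adjusted p but not the fold. Among these were RAP1 at 0.53, RIM15 at 0.40, and TPK2 and STB3 at -0.40 each.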

How the data were processed

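RNA-seq counts of 12 libraries were used. The deposited values are raw fragment counts per gene in 2 tables, 1 for each mutant with its wild type. Fragments over exons were counted by the authors with featureCounts 2.0.1, without strand and without those over several genes, per the file headers, and reads were aligned with Bowtie 0.12.2 to sacCer3, per the submitters' processing notes. How repeats were aligned is not given in the sources used here. Of 7127 IDs, 6047 matched the R64 reference and 6038 of these had the same start and end, as did 79 of 81 members (RPL20A and RPL20B lack their first exon in the tables).

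CPM are fragments over all counted fragments of a library. Each table was fitted with edgeR 4.0.16 in R 4.3.3 (minimum count 10, TMM, quasi-likelihood test), with p-values adjusted by Benjamini-Hochberg over all genes tested and called at 0.05 and 1.5-fold, the series' thresholds. Copy ratios were tested on the counts of both copies with the library as a block. The alternatives used DESeq2 1.42.0 and limma 3.58.1 among others. Counts are limited by depth, which was 17253140 fragments or more per library.

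The members and lists were chosen with earlier results of these data known. One gene is counted with its group and pair but is not reported here. Per-library values were given for the highest and lowest 4 members of each mutant comparison, the stalk genes, the pairs with the largest ratio changes and the members of smallest adjusted p. Pairs were first taken to include systematic IDs ending in -A and -B, and were then read as standard names. The promoter windows, the 40% limit, the window sizes, other named pairs and the test of the ratio difference were chosen after seeing the values.

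The tests were tried on simulated counts. In the H2AZ table, 30 of 50 genes changed 1.5-fold and 46 of 50 changed 2-fold were called at an adjusted p below 0.05 (fold limit not applied), with 16 of 5743 unchanged genes called, and 3 and 21 of 50 in the Ino80 table, with 10 of 5808. Of 12 pairs with a ratio changed 2-fold, 12 were called in the H2AZ table whether the noise of the copies was shared or independent. With independent noise, 0 of 12 were called in the Ino80 table. A simulation in which both copies shared a deviation of set size within a library was added after that outcome. The noise of the ratio was taken from the pair fit itself, and 12 of 12 were called. The shared part cancels in the ratio and the rest is the noise of that same fit, so this does not offset the 0 of 12.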

Additional observations from a re-analysis of the deposited data

Results flagged for a closer look

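The results below are those in which the effects of the mutants differed by a test of the difference itself. Against 1.99% of all genes called higher, 24 of 79 large subunit genes were called higher in the difference between the mutant effects (edgeR, contrast of 12 libraries). Among them RPL18B had a log2 difference of 1.22, RPL31B 1.08, RPL35A 1.38 and RPL38 1.64. The copy ratio change differed by 1.11 for RPL9 and 0.55 for RPL14. In that test, added after the values were seen, 3 of 33 large subunit pairs passed. Over the 59 gene pairs 10.2% passed, so the share is near the background. The gene calls are unstable when a library is left out, as given with the comparison. With the replicate number as a block 2 genes were called, RPL18B and RPL38.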

How the results depend on the processing

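In H2AZ_4KR the count of called genes was 55, and 27 under total counts, 40 with the gene length offset, 0 with glmTreat at 1.5-fold, 24 in 1 fit of 12 libraries and 41 to 61 with a library left out. Over all genes 4.78% were called higher in H2AZ_4KR, 2.26% under total counts and 4.95% with the gene length offset. With a library left out that share was 3.99% to 5.02%. In the difference between the mutants the count was 24, and 62 by DESeq2, 0 with glmTreat and 2 with the replicate block. It was 1 to 55 with a library left out. Over all genes 1.99% were called higher there, and 6.03% by DESeq2, 0.209% with the block and 0.111% to 3.84% with a library left out. Between the wild types the count of called large subunit genes was 62, and 39 with the gene length offset and 16 with glmTreat. It was 38 to 65 with a library left out. Over all genes 17.7% were called higher there, 16.1% with the offset and 15.2% to 18.5% with a library left out. The share over all genes was not computed for glmTreat or for H2AZ_4KR in 1 fit of 12 libraries. The 5 called pairs in H2AZ_4KR became 1 when a ratio change over 1.5 was asked, and 0 to 7 with a library left out. The 2 called pairs in Ino80_K929R became 0 with that limit, 7 with the replicate block and 0 to 4 with a library left out. The cause was not tested for any of these, except that glmTreat and the limit on the ratio ask for larger changes and that fits without a library have fewer samples.

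Among the genes named, directions turned where fragments were few or the change was near 0. RPL33A stood at -0.0018 under total counts, RPL22A at -1.14 with limma-voom and -0.24 with the replicate block, RPL28 at 0.097 with limma-voom and 0.11 with the replicate block, and RPL36B in Ino80_K929R at -0.0071 with TMM factors set without ribosomal protein genes. With a library left out the ranges were -2.10 to 0.84 for RPL22A, -0.34 to 0.47 for RPL28 and -0.29 to 0.39 for RPL33A in H2AZ_4KR, and -0.21 to 0.51 for RPL36B and -0.25 to 0.25 for RPL22B in Ino80_K929R.

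Correlations of the deviations of same-numbered samples were 0.13, 0.19 and -0.10 in the H2AZ table and 0.37, -0.35 and -0.13 in the Ino80 table. Those of differently numbered samples ran from -0.26 to 0.13 and from -0.49 to 0.60. The deviations are taken within groups of 3 and so depend on each other. These values therefore cannot decide whether the numbers mark pairs. With the replicate block 54 genes were called in H2AZ_4KR and 0 in Ino80_K929R. Adding pairs of systematic IDs left 5 and 2 large subunit pairs called. The covered genes were left with few fragments, since those over more than 1 gene were not counted, and their changes are the least certain.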
